A study of Mus musculus with 24 samples.

Results

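A group of 10 less studied genes was followed in the mouse hippocampus across all libraries of the series: Ctla2a, Ly6a, Grrp1, Gm694, Tmem252, Scgb3a1, Apol11b, Ier3, Igfbp7 and Tmem176a. They are 10 of the 24062 genes in the count table, found there by symbol. They were chosen by their higher level in stressed than in unstressed wild-type libraries, so that difference is a description of the choice and not a finding. The libraries not used in the choice are those of the knockout mice, and the tests below rest on them or on differences between libraries of the same group.

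The study sequenced RNA from micro-dissected hippocampus of C57BL/6 mice. Wild-type (WT) mice were compared with mice lacking the interleukin-1 receptor IL-1R1, named in the study's title as a neuronal knockout (KO), and each genotype was either left as a control or put through social defeat by paired fighting. Controls make up 7 WT and 6 KO libraries, and stressed mice 6 WT and 5 KO libraries, with 25711872 to 35148198 counts in a library. The labels name neither the promoter that drove the deletion nor the age or sex of the mice, nor whether every library is a different mouse, so p-values measure only the spread between libraries, part of which may be technical.

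The targeted gene does not tell the labelled genotypes apart in this bulk tissue: Il1r1 stood at 1.99 to 5.65 CPM (counts scaled to a library's total, with TMM factors) in WT controls and at 2.1 to 5.46 CPM in KO controls. "WT" and "KO" therefore mean the groups as labelled. Markers of hippocampal neurons were measured for 10 of 10 listed genes. The libraries also fall into a set of 11 with high levels of the ribosomal RNA precursor Rn45s (24238 to 50453 CPM, set 1) and a set of 13 with low levels (4107 to 8786 CPM, set 2). KO stress has 2 libraries in set 1 and 3 in set 2, while KO control has 4 and 2. In set 2 the libraries WT stress 5, KO stress 3 and KO stress 5 were rich in thalamic transcripts, with marker sums of 825, 869 and 653 CPM, and some set 1 libraries came close, such as KO control 3 at 605 and KO stress 1 at 595 CPM. Choroid plexus markers, from tissue beside the hippocampus, summed to 34.1 to 2650 CPM.

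The inner wall of brain vessels is a single layer of endothelial cells that seals blood from tissue, and it carries receptors for circulating cytokines such as interleukin-1. Stress and inflammation can switch these cells to an activated state in which they make adhesion and acute-phase proteins, and can bring neutrophils and monocytes to the vessel wall. Several of the genes described here are known from endothelium, others from epithelium, bone marrow or immune cells. In bulk tissue, fewer cells of a type and less RNA per cell cannot be told apart.

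The sequence just before the start of a gene is shown for 5 members because they hold a motif of a factor known from inflammatory signalling. RefSeq promoters of build GRCm38.p6 were matched for 9 of the 10 members, in 11 entries since Ctla2a and Tmem176a have more than 1 start. The stretch of 220 bases from -250 to -31 before the start was read 5′ to 3′ on the gene's strand, and both strands were searched. Capitals mark the STAT motif TTCNNNGAA in Ctla2a, Scgb3a1 and Apol11b, where Ctla2a also holds the AP-1 motif TGANTCA and the glucocorticoid receptor core TGTTCT, and these 3 do not overlap. In Ier3 and Igfbp7 capitals mark the NF-kB motif.
Ctla2a: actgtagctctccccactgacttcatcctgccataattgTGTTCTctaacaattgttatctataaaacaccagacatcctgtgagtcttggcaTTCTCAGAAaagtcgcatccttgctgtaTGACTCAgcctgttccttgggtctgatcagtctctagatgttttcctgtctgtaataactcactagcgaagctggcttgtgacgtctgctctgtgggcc
Scgb3a1: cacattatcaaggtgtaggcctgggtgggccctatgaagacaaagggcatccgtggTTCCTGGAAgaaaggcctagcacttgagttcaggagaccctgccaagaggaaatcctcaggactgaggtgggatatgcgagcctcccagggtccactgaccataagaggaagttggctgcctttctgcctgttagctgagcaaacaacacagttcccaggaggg
Apol11b: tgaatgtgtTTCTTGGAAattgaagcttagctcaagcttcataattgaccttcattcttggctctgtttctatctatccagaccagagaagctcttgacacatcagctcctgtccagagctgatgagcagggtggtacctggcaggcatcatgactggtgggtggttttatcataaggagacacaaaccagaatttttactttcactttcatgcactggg
Ier3: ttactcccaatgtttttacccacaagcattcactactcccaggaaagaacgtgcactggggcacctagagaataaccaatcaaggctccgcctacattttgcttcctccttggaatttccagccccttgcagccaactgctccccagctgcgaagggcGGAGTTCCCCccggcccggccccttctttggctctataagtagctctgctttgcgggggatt
Igfbp7: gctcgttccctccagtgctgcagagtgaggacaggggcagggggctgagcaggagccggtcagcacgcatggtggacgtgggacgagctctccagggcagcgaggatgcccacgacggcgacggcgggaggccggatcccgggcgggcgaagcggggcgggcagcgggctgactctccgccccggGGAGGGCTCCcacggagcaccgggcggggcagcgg

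These stretches lie at chr13:60936656-60936875 on the minus strand (Ctla2a), chr11:49663345-49663564 on the plus strand (Scgb3a1), chr15:77643317-77643536 on the minus strand (Apol11b), chr17:35821463-35821682 on the plus strand (Ier3) and chr5:77408076-77408295 on the minus strand (Igfbp7). The STAT motif was in 6.27% of 32851 promoters of the same length. AP-1 letters were in 6.12% and the receptor core in 14.4%. The NF-kB motif, which Tmem176a holds too, was in 6.95%. No member held the ETS motif CGGAAG, found in 10.8% of promoters, or the CArG motif, found in 1.3%. A match describes these letters only.

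Igfbp7, a secreted protein that binds insulin-like growth factors and lies in the matrix of vessel walls, had the smallest p of the members in KO stress against KO control. It lay between 30 and 38.6 CPM in KO controls, with a median of 34.9. KO stress libraries 1 to 5 read 39.1, 43.1, 47.5, 47.5 and 54.5 CPM. All 5 stress libraries were above every control, which 0.233% of the 16313 tested genes also did, and no other member did. The KO log2 fold change was 0.42 ± 0.11 (SE, n = 5 against 6), with an unadjusted p of 0.00084 and an adjusted p of 0.978 in the quasi-likelihood test of edgeR. In WT libraries Igfbp7 ran from 28.7 to 42.2 CPM in controls (median 31.6) and from 37.6 to 57.2 CPM under stress (median 50.8). Here 5 of 6 stress libraries were above the highest control, and Igfbp7 was the only member whose WT groups overlapped. The gene, at chr5:77349240-77408041, overlaps Polr2b on the other strand.

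Ctla2a encodes an inhibitor of cathepsin L-like cysteine proteases. Its level was 4.16 to 7.8 CPM in KO controls, with a median of 5.61. The KO stress libraries read 6.06, 6.84, 8.49, 9.62 and 11.3 CPM. Of these, 3 were above every control and the 2 of set 1 were inside the control range. The log2 fold change was 0.51 ± 0.18 with an unadjusted p of 0.0104 and an adjusted p of 0.988 (edgeR). WT controls held 3.52 to 6.94 CPM (median 4.53) and WT stress 8.46 to 13.1 CPM (median 11.6), with no overlap. Genes Gm49391 and Gm49393 share its strand and overlap it, so reads could have been split between them.

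Ly6a, also known as Sca-1, is an anchored surface protein of brain endothelium and of blood stem cells. KO controls held 24.9 to 39.5 CPM (median 28) and the KO stress libraries 24.7, 35.4, 28.6, 44.2 and 51 CPM. Only 2 stress libraries were above the controls, and the lowest value of both groups was a stress library. The log2 fold change of 0.29 ± 0.16 had an unadjusted p of 0.0842 (edgeR), and was 0.14 without KO stress 5. In WT mice the control range was 20.3 to 30.6 CPM (median 26) and the stress range 41.2 to 58.2 CPM (median 47.9), which did not overlap.

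Scgb3a1, a small secreted secretoglobin known from airway epithelium, was scarce. Across KO controls it ran from 0 to 0.509 CPM (median 0.241). KO stress libraries 1 to 5 read 0.277, 0.427, 0.671, 1.83 and 0.79 CPM. The groups overlapped, with 3 of 5 stress libraries above all controls. Its log2 fold change was 1.58 ± 0.61, and 1.02 without KO stress 4. The gene passed the expression filter only through stress libraries, since 2 of 13 control libraries held 10 counts of it, so no p is given. WT controls held 0 to 0.266 CPM (31 reads over 7 libraries) and WT stress 0.732 to 2.67 CPM (250 reads over 6), without overlap.

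Apol11b belongs to the apolipoprotein L family and was the scarcest member. It had no read in 5 of 7 WT controls and 5 reads in the group. A count of 3 reads in a library equals 0.0854 to 0.117 CPM here, and this floor covers counting error only. WT stress libraries ran from 0.139 to 1.41 CPM (median 0.568, 134 reads), above every control. In KO controls the values were 0 in 2 libraries, 0.0679, 0.0699 and 0.136 CPM in a further 3, and 0.873 CPM in KO control 4. KO stress libraries read 0.277, 0.142, 0.604, 1.54 and 0.987 CPM. Of these, 2 lay above KO control 4, and all 5 above the remaining controls. The log2 fold change was 1.88 ± 0.82, and 3.57 ± 0.84 without KO control 4. As 1 of 13 control libraries held 10 counts of it, Apol11b too passed the filter only through stress libraries, and no p is given.

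Tmem252, a membrane protein, spread the most among the better measured members. KO controls ran from 0.514 to 3.47 CPM (median 1.19), and the KO stress libraries read 2.15, 1.14, 2.68, 4.75 and 7.67 CPM. The 2 highest stress libraries were above all controls, while KO stress 3 of set 2 and the 2 of set 1 were not. The log2 fold change was 1.31 ± 0.49, with an unadjusted p of 0.013 (edgeR), and 0.85 without KO stress 5. WT controls held 0.714 to 2.8 CPM (median 1.03) and WT stress 3.02 to 12.5 CPM (median 6.68), with no overlap.

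Tmem176a, a membrane protein of the immune and vascular system whose gene starts head to head with Tmem176b on the other strand, had a small difference of even size across libraries. KO controls ran from 13.3 to 19.3 CPM (median 15.7). Stress libraries of the KO group read 17.7, 21.8, 20, 20.3 and 20.1 CPM, 4 of them above all controls. The log2 fold change was 0.29 ± 0.10 with an unadjusted p of 0.00886 (edgeR). WT controls held 12.3 to 18.1 CPM and WT stress 19.5 to 24.4 CPM, without overlap.

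Ier3 is an early response gene that inflammatory signals induce through NF-kB. KO controls had 6.85 to 10.3 CPM (median 8.95), and the KO stress libraries 8.73, 10.3, 9.83, 11.8 and 17.8 CPM. A single library, KO stress 5, stood far above the rest. The log2 fold change was 0.39 ± 0.17 with an unadjusted p of 0.0362 (edgeR), and 0.18 without KO stress 5. The WT control range of 5.07 to 7.66 CPM (median 6.46) was below the WT stress range of 9.82 to 18.2 CPM (median 11.7). KO and WT controls also differed in level: KO minus WT was 0.48 ± 0.16 (log2) for Ier3, against -0.02 to 0.32 for the other 7 well measured members. The WT controls took part in the choice of members, so that value has no test.

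Grrp1 and Gm694 complete the list. Grrp1 ran from 3.91 to 6.69 CPM in KO controls and read 5.54, 6.84, 6.28, 7.61 and 9.81 CPM in KO stress, with a log2 fold change of 0.49 ± 0.18 and an unadjusted p of 0.011 (edgeR). Gm694, which the GENCODE vM21 and RefSeq annotations call Srarp, a steroid receptor associated protein, ran from 2.23 to 4.73 CPM in KO controls and read 2.91, 3.99, 2.58, 3.99 and 4.94 CPM in KO stress. Gm694 was the member with the smallest KO difference, 0.14 ± 0.21 (95% interval -0.29 to 0.57), with an unadjusted p of 0.502 (edgeR), and 0.01 without KO stress 5. In WT libraries both genes separated: Grrp1 at 3.6 to 6.61 CPM in controls and 6.8 to 12.2 CPM under stress, Gm694 at 1.94 to 4.12 and 4.96 to 7.27 CPM.

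**Figure D1:**
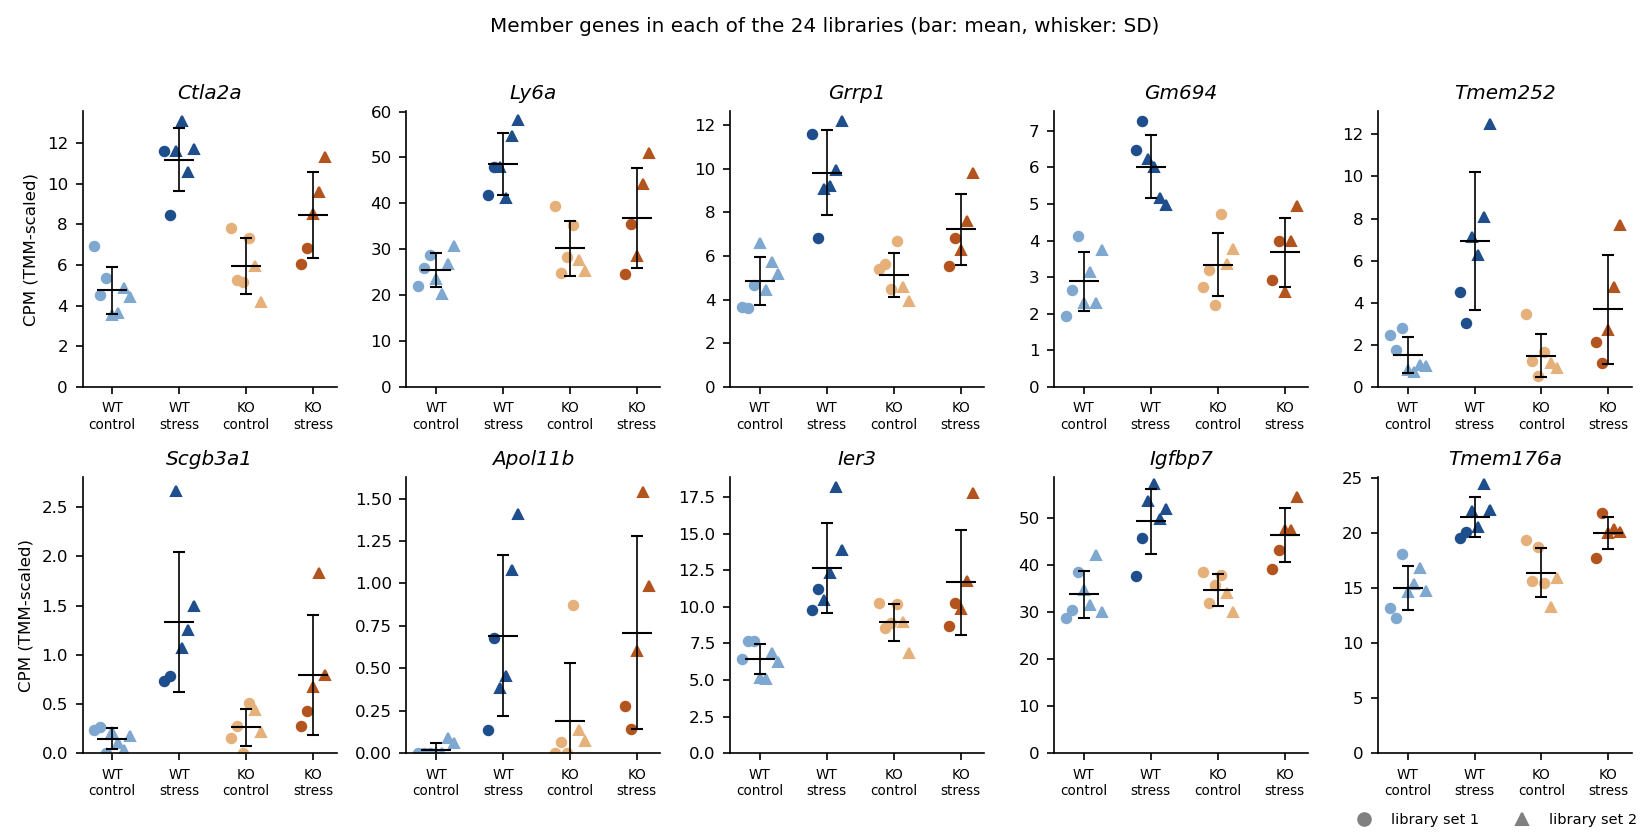
Level of each of the 10 genes (y axis, TMM-scaled CPM, starting at 0) in every library, by group (x axis). Points are libraries, circles for set 1 and triangles for set 2, and bars give the mean with the SD. WT groups are apart for every gene except Igfbp7, while KO groups are apart for Igfbp7 alone, and the highest KO stress point is a triangle for 9 of 10 genes.

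On GRCm38 (GENCODE vM21) the other members lie at chr13:60934155-60936625 (Ctla2a), chr15:74994877-74998031 (Ly6a), chr4:134251110-134254106 (Grrp1), chr4:141432672-141436105 (Gm694), chr19:24674008-24682233 (Tmem252), chr11:49663610-49665118 (Scgb3a1), chr15:77633946-77643286 (Apol11b), chr17:35821684-35822923 (Ier3) and chr6:48840919-48847071 (Tmem176a). Per kilobase of exon, which allows genes to be compared, Ly6a and Igfbp7 led: their WT control means were 21.1 and 27.9 CPM per kb, and their WT stress means 40.3 and 40.8. Ier3 followed at 5.69 and 11.2. Tmem176a, Grrp1, Gm694 and Ctla2a lay between 2.26 and 3.94 in WT controls. Tmem252, Scgb3a1 and Apol11b were the scarcest, with 0.3, 0.247 and 0.00865 CPM per kb.

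In the test of KO stress against KO control, 0 of 10 members passed an adjusted p of 0.05 (edgeR quasi-likelihood test with Benjamini-Hochberg adjustment over 16313 genes), and 1 gene of all tested did, the heme synthesis gene Alas2, which is 0.00613%. DESeq2 called 7 genes and limma voom 1, with 0 members in either. Leaving out Scgb3a1 and Apol11b, which passed the filter only through stress libraries, all 8 other members had a KO value above 0, with a median of 0.401 (log2), against a median of 0.00515 and 51.4% above 0 over all tested genes. At an unadjusted p under 0.05 there were 6 of these 8, against 3.97% of all genes. With that pair the numbers are 8 of 10 and a median of 0.456. Markers of other tissue had positive values in the same contrast: 16 of 16 choroid plexus markers (median 0.858), 10 of 10 thalamus markers (median 0.545) and 14 of 14 pericyte and smooth muscle markers (median 0.133), with 0 of each past the threshold. In WT stress 0 of 16 choroid plexus markers were above 0 (median -0.489), while 10 of 10 thalamus and 13 of 14 pericyte markers were. The part of these tissues in the members' values was not tested. The unadjusted count over the 10 rested in part on single libraries: it fell to 3 of 10 without KO stress 5 and to 5 of 10 without KO stress 4, and was 6 to 9 of 10 when any other KO library was left out. These counts include Scgb3a1 and Apol11b and were not made for the other 8 members alone.

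WT stress against WT control, the contrast that chose the members, gave 22 genes past the threshold, or 0.135% of those tested, and the 10 members are among them. Members past the threshold were 6 to 10 with 1 library left out, 6 without WT stress 3, and also 6 within set 2 and 6 without the thalamus-rich libraries. Their WT log2 fold changes, given as a description, ran from 0.52 (Tmem176a) to 4.67 (Apol11b). At the edge of the choice, which these p-values only describe, Tmem252 had an adjusted p of 0.0427, while Chil3 (0.0635) and Slc52a3 (0.0645) fell just outside (edgeR). WT stress was above WT control without overlap for 9 of 10 members and for 0.221% of all genes, from the same contrast. The KO log2 fold change was below the WT one for each member, for example 0.51 against 1.23 for Ctla2a, 0.29 against 0.94 for Ly6a and 0.14 against 1.06 for Gm694, and was nearest for Igfbp7, 0.42 against 0.55. The differences between the genotypes' stress values (KO minus WT) ran from -0.13 ± 0.15 for Igfbp7 to -2.79 ± 1.3 for Apol11b. Since WT libraries chose the members for a large WT value, the differences carry no test.

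**Figure D2:**
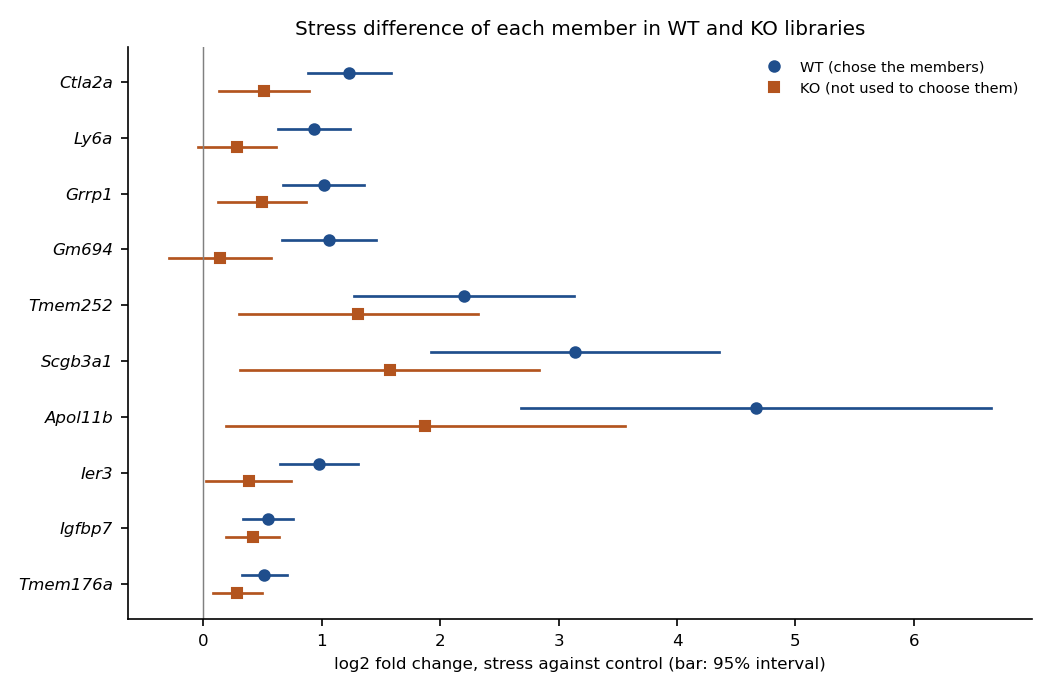
Log2 fold change of stress against control (x axis) with its 95% interval for each gene (y axis), in WT libraries (circles) and KO libraries (squares). Each KO value lies to the left of the WT value. The KO interval includes 0 for Ly6a and Gm694. Those of Scgb3a1 and Apol11b are a description only, since both genes passed the expression filter only through stress libraries.

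The members' KO values differed in size between the library sets. Within set 1 (2 stress against 4 control libraries) the members' median log2 fold change was 0.059, 7 of 10 were above 0 and 0 had an unadjusted p under 0.05. Within set 2 (3 against 2) the median was 0.817, all 10 were above 0, and adjusted p-values were 0.416 or more (edgeR). An unadjusted p under 0.05 (edgeR) was found there for 9 of 10, Scgb3a1 and Apol11b among them. The share of all genes at that p within each set is not given here, so these counts have no background. The KO value of Ctla2a was 0.02 ± 0.24 in set 1 and 0.95 ± 0.20 in set 2. Tmem252 gave -0.06 ± 0.55 and 2.29 ± 0.43, and Ier3 gave 0.00 ± 0.16 and 0.74 ± 0.27. Igfbp7 was above 0 in both sets, at 0.19 ± 0.14 and 0.64 ± 0.13. Gm694 had 0.10 ± 0.33 and 0.11 ± 0.28. KO stress 5, a set 2 library, had the highest KO stress level of 7 members, and KO stress 1, of set 1, the lowest of 7. Choroid plexus markers in set 2 summed to 45 and 54.9 CPM in KO controls and to 843 to 2140 CPM in KO stress. In set 1 they summed to 215 to 1960 CPM in KO controls and to 1510 and 1600 CPM in KO stress. The set 2 libraries KO stress 3 and KO stress 5 were also rich in thalamic transcripts. The difference between the sets, and the part of these tissues in it, was not tested. In WT libraries the members' median was 0.826 in set 1 and 1.12 in set 2. With the 3 thalamus-rich libraries of set 2 left out, the KO median was 0.326. An unadjusted p under 0.05 (edgeR) was then found for 3 of 10, Scgb3a1 among them, again without a share of all genes.

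**Figure D3:**
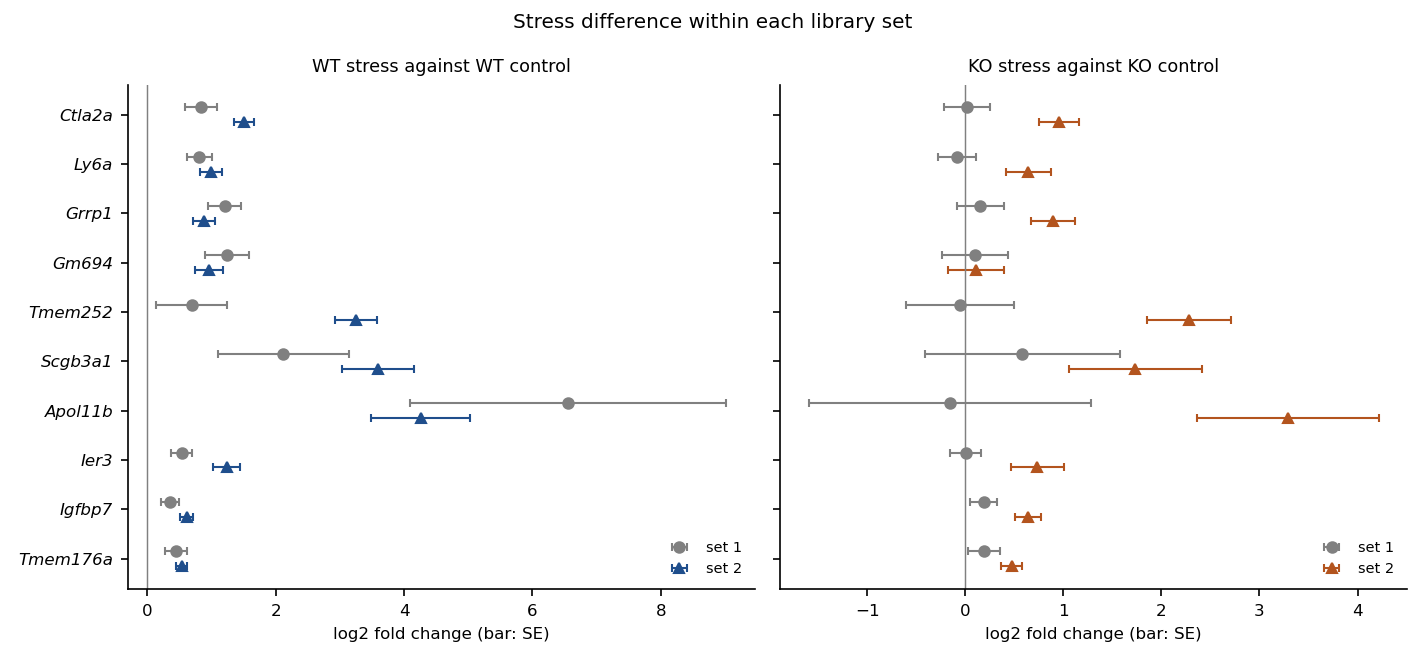
Log2 fold change of stress against control (x axis, bars are SE) within set 1 (circles, grey) and set 2 (triangles, coloured) for each gene, WT on the left and KO on the right. On the KO side the set 1 values run from -0.16 to 0.58 and those of set 2 from 0.11 to 3.29, each to the right of its set 1 value, by very little for Gm694.

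Of 21 tested relatives, 0 passed the threshold in KO stress or in WT stress (edgeR), and their medians were -0.0333 and 0.0302 (log2). Ctla2b, the neighbour of Ctla2a and of like function, had 0.19 ± 0.35 in KO and 1.08 ± 0.32 in WT libraries (adjusted p = 0.405, edgeR). Ly6c1, an endothelial surface protein encoded near Ly6a, had 0.17 ± 0.15 in KO and 0.55 ± 0.14 in WT (adjusted p = 0.161, edgeR), whereas Ly6e, encoded in the same cluster, had -0.03 and 0.03. Tmem176b had 0.21 ± 0.10 in KO and 0.20 ± 0.09 in WT. Igfbp5 had 0.08 and -0.02. Ier2 and Ier5, early response genes like Ier3, had -0.60 ± 0.47 and -0.56 ± 0.21 in KO and 0.41 and 0.03 in WT. Apol11a, the nearest relative of Apol11b, had 4 reads over the 24 libraries, 2 in each KO group. Scgb3a2 and Scgb1a1 were listed at 0 in every library. Of 11 tested genes on a list of activated endothelium, 3 passed the threshold in WT stress and 0 in KO stress (edgeR). Of all genes 0.135% and 0.00613% did. All 11 were above 0 in WT and 10 were in KO, with medians of 0.867 and 0.765 (log2). Vwf, the clotting factor carrier of endothelium, had 1.12 ± 0.26 in KO and 1.3 ± 0.24 in WT, and Lrg1, an acute-phase protein, had 1.12 ± 0.28 and 1.91 ± 0.26.

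Blood cell markers had large positive values under stress. Of 9 tested red blood cell markers all 9 were above 0 in both genotypes, with medians of 2.09 in WT and 1.31 in KO (log2), and 2 rose in WT and 1 in KO (edgeR). Of 13 tested neutrophil and monocyte markers 12 were above 0 in both, with medians of 3.36 and 1.8, and 3 rose in WT and 0 in KO (edgeR). None of 23 endothelial markers passed in either genotype, though 22 were above 0 in WT and 21 in KO, with medians of 0.226 and 0.191 (log2). Red blood cell markers summed to 70.4 to 91.6 CPM in the KO control group and 96.6 to 136 in the stressed one, and to 70.9 to 87.5 in WT controls and 106 to 151 in WT stress. Neutrophil and monocyte markers summed to 14.6 to 19.5 CPM in KO controls, 20.4 to 49.3 in KO stress, 15.4 to 20.2 in WT controls and 19.2 to 84 in WT stress. Endothelial markers summed to 689 to 791 CPM in KO controls, 752 to 933 in KO stress, 654 to 793 in WT controls and 769 to 898 in WT stress. The red blood cell sums did not overlap between stress and control in either genotype, and the endothelial sums did in both.

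The members were related to these cell types by their slope on a score, the mean log2 CPM of the markers, in a fit that held group and set fixed. Group and set entered as additive terms, so the mean WT stress difference that chose the members is not part of the slope. The set term was a single shift shared by all groups. A stress difference that varies between the sets is therefore not removed, and WT libraries add to the slope. For each of the endothelial, red blood cell, and neutrophil and monocyte scores, 0 of 10 members passed the threshold (edgeR, adjusted over all genes), where 0.0981%, 0% and 0.0368% of all genes did. At an unadjusted p under 0.05 there were 5, 3 and 5 members, against 22.2%, 3.75% and 6.68% of all genes. With 1 library left out the red blood cell count was 2 (without KO control 4) to 5, and that of neutrophils and monocytes 2 (without KO stress 5), 3 (without WT control 5) or 4 to 6. Among the 3 on the red blood cell score is Apol11b, which passed the filter only through stress libraries.

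On the endothelial score all 10 slopes were above 0, with a median of 1.67 (log2 change per log2 unit of score) against 0.0657 over all genes, where 52.7% were above 0. Among the 10 are Scgb3a1 (3.12 ± 2.57) and Apol11b (4.87 ± 3.64), which passed the filter only through stress libraries. The median was not made without them. Other tissue followed this score as well: 16 of 16 choroid plexus markers (median slope 3.63), 10 of 10 thalamus markers (2.82) and 12 of 14 pericyte and smooth muscle markers (1.02) were above 0, and their part in the members' slopes was not tested. Ier3 had the steepest slope for its error, 2.46 ± 0.59 with an adjusted p of 0.0823, and Igfbp7 had 1.25 ± 0.40 with an adjusted p of 0.115 (edgeR). Ctla2a, Ly6a and Tmem252 had 1.77 ± 0.74, 1.58 ± 0.63 and 4.58 ± 1.94, with unadjusted p-values of 0.0254, 0.0194 and 0.0278 (edgeR). Grrp1 at 0.03 ± 0.76 and Tmem176a at 0.13 ± 0.46 were within their error of 0. The score spread little once the group and set terms were fitted (SD 0.085). As 22.2% of all genes had an unadjusted p under 0.05 (edgeR), the 5 of 10 stands against a high background. Without KO stress 3, Ier3 passed the threshold with an adjusted p of 0.0327, but 811 genes in place of 16 then did (edgeR). Without KO stress 1 or KO stress 5 the unadjusted count was 2 of 10. The score of WT stress 1, 4.43, lay inside the WT control range of 4.39 to 4.5. It held 11.6 CPM of Ctla2a, 11.6 CPM of Grrp1 and 6.48 CPM of Gm694, above every WT control. That position follows from the choice of members and is a description only. Among WT stress libraries it had the lowest level of 5 members. Within set 1 the slopes of Ctla2a, Grrp1, Tmem252 and Tmem176a were below 0.

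**Figure D4:**
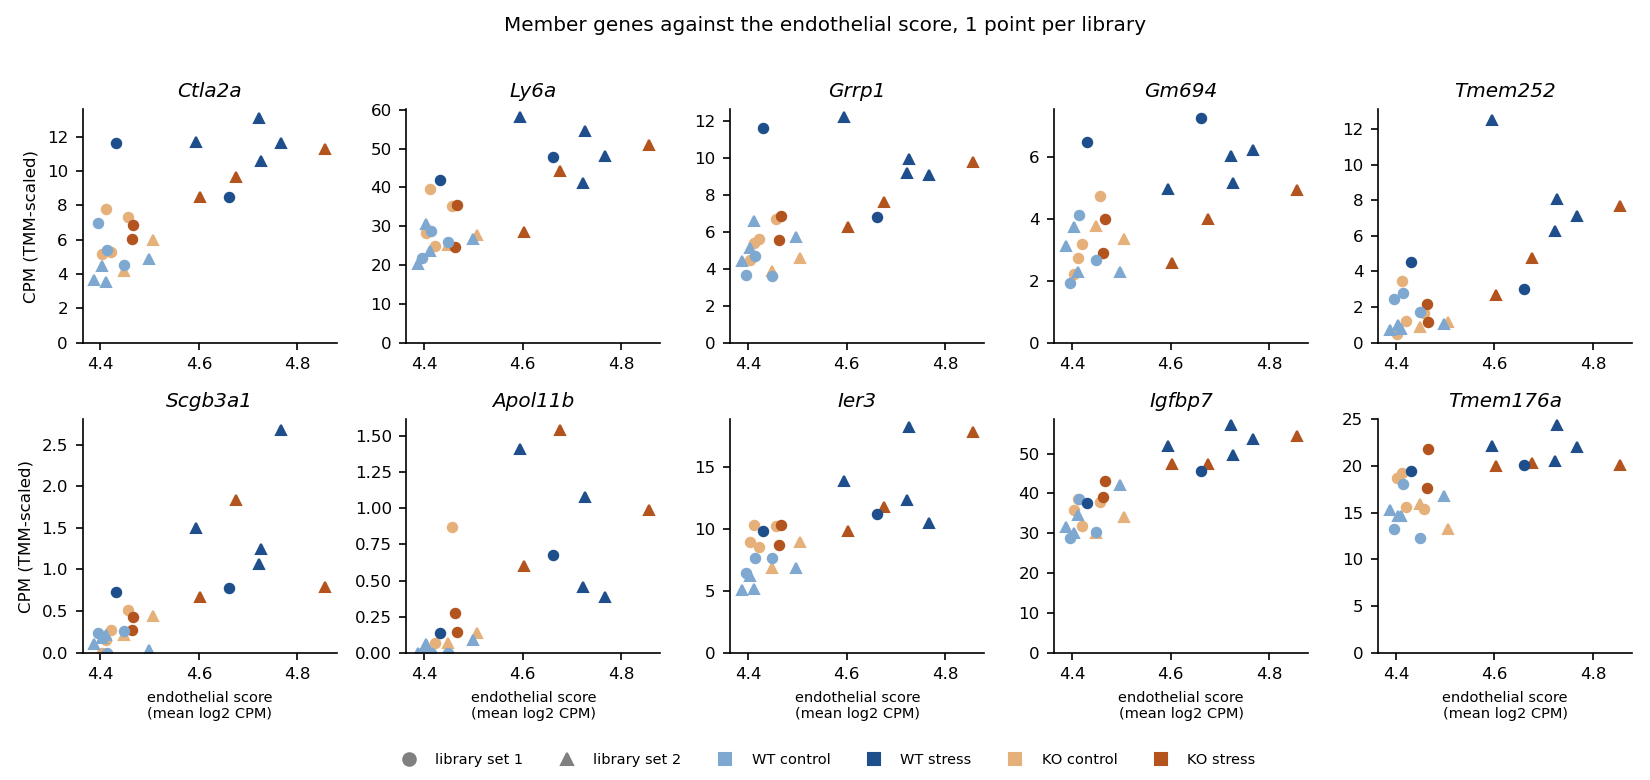
Level of each gene (y axis, TMM-scaled CPM) against the endothelial score (x axis, mean log2 CPM of 23 markers), 1 point per library, coloured by group and shaped by set. Of the 11 stress libraries, 3 (WT stress 1, KO stress 1 and KO stress 2) have scores inside the range of the controls and the others lie above it, and the 2 highest Ier3 levels are in WT stress 5 and KO stress 5.

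Ier3 followed the neutrophil and monocyte score most closely. Its slope there was 0.38 ± 0.08, rank 7 of all genes by p, with an unadjusted p of 4.48e-05 and an adjusted p of 0.104 (edgeR). It passed the threshold with no expression filter (adjusted p = 0.0219) and without KO stress 3 (adjusted p = 0.0337, edgeR), and its slope was -0.07 within set 1. Of the 6 genes that passed, Lyz2, S100a8 and S100a9 are part of the score, so their passing is no finding. Tmem252 had 0.80 ± 0.25 with an unadjusted p of 0.00429, and Ly6a 0.24 ± 0.09 with 0.0134 (edgeR). Tmem176a and Grrp1 again had slopes near 0, at 0.03 ± 0.06 and 0.05 ± 0.11.

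On the red blood cell score the members with the smallest p were Ier3 at 0.44 ± 0.15 and Tmem252 at 1.25 ± 0.43, with unadjusted p-values of 0.00551 and 0.00818 and adjusted p-values of 0.951 (edgeR). The scarce Apol11b and Scgb3a1 had slopes of 2.16 ± 0.74 and 0.56 ± 0.53. Igfbp7 had 0.12 ± 0.10 and Grrp1 0.00 ± 0.17. Grrp1 and Tmem176a were thus within their error of 0 on all 3 scores.

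With a score added as a term to the stress fit, the members' KO median of 0.456 became 0.281 (endothelial), 0.295 (neutrophil and monocyte) and 0.0376 (red blood cell), and with library set as the term it was 0.404. These medians include Scgb3a1 and Apol11b, which passed the filter only through stress libraries. All 10 were above 0 with each of these terms except the red blood cell score, with which 5 of 10 were. Under that term Grrp1 and Tmem176a had 0.35 ± 0.28 and 0.30 ± 0.16, with unadjusted p-values that went from 0.011 to 0.23 and from 0.00886 to 0.0697 (edgeR), while Ier3 and Ly6a were at -0.12 ± 0.24 and -0.09 ± 0.23. The red blood cell score itself was -0.63 to 0.02 in WT controls and 0.45 to 1.42 in WT stress, while KO controls held -0.77 to 0.08 and stressed KO libraries -0.11 to 1.98, so it nearly separates stress from control. In WT libraries all 10 stayed above 0 under each term, with medians of 0.908, 0.875 and 0.847. With these 3 scores 0 members passed the threshold (edgeR), where 1, 0 and 0 of all tested genes did, against 22 with no term. The WT values remain a description, since they chose the members. The part of blood or vessel content in the members' stress difference was not tested.

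**Figure D5:**
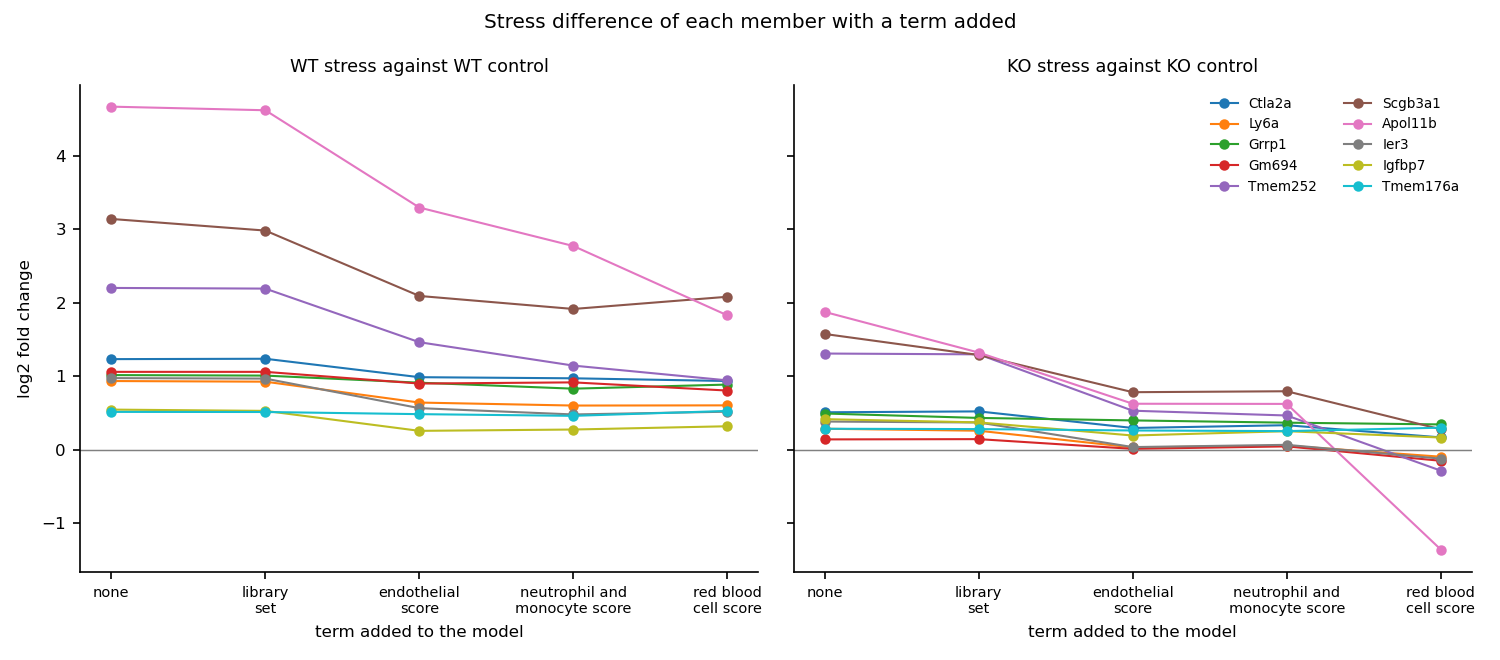
Log2 fold change of stress against control for each gene (y axis) with no added term, library set, or 1 of the 3 scores as a term (x axis), WT on the left and KO on the right. WT lines stay above 0 throughout. KO lines of 5 genes end below 0 with the red blood cell score, Apol11b lowest at -1.35.

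The genes most like each member across the 24 libraries, by Pearson's r of log2 CPM after group and set means were removed, are given as a description, since the points share libraries and depth. Ly6a was nearest to Ly6c1 (r = 0.869), its relative on endothelium, and to Tnk2 (0.824) and Ccdc92 (0.81). Igfbp7 was nearest to Tinagl1 (0.83), Scly (0.803) and Bgn (0.794), of which Tinagl1 and Bgn encode matrix proteins. Ier3 was nearest to Lyz2 (0.86), the lysozyme of neutrophils, monocytes and macrophages, and to Fndc5 (0.806) and Tmem104 (0.776). Tmem252 was nearest to Osmr (0.793), the oncostatin M receptor, then to Eif4e3 (0.755) and A330102I10Rik (0.755). Gm694 was nearest to Acvrl1 (0.79), an endothelial receptor of the TGF-beta family, then to Myo1c (0.771) and Wwox (0.755). Ctla2a was nearest to Kremen2 (0.786), Pthlh (0.749) and Cmtm3 (0.712), and Tmem176a to Vasp (0.855), Acads (0.82) and 2210016F16Rik (0.788). For Grrp1 these were Ptcd2 (0.799), Fam120aos (0.781) and Pbdc1 (0.768). For Scgb3a1 they were Zfp712 (0.796), Baz1b (0.762) and Zbtb49 (0.754), and for Apol11b Rad52 (0.772), Wdr55 (0.716) and 9430016H08Rik (0.71). Of the 23 endothelial markers, at most 1 was among the 50 genes most like any member.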

How the data were processed

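RNA of 24 hippocampal libraries was analysed from read counts per gene symbol, deposited by the authors as whole numbers without scaling. Build mm10, STAR and DESeq2 are named, without versions, in the submitters' processing notes. The sources used here do not name the read counter, its annotation or its use of strand. Of counts from 1 to 10, 70.9% to 75.8% were even, so a fragment may weigh as 2 reads. Groups were taken from the sample titles. The members and all marker lists were chosen with earlier results of these data known.

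Counts were fitted with edgeR 4.0.16 (R 4.3.3; TMM factors, robust quasi-likelihood, minimum count 10) in 1 model of 4 group means, with 20 residual degrees of freedom, and p-values were adjusted by Benjamini-Hochberg over 16313 genes at 0.05. An SE is the log2 change divided by the root of F. Slopes on marker scores (mean log2 CPM, prior count 2, members left out) were fitted with group and library set as terms, and sets were divided at the widest gap of Rn45s. No library appeared to be deposited more than once. The fits were tested on simulated data. Alternatives were RLE factors, DESeq2 1.42.0, limma 3.58.1 voom, other filters, set or scores as terms, each set alone, a replicate block and leaving out each library; 2 sets of terms were added after seeing the data. Named were the members, their relatives, Vwf and Lrg1, and the 3 genes most like each member; Alas2, Chil3, Slc52a3, and the genes named beside the neutrophil and monocyte score were chosen after their values were seen. Gene positions are from GENCODE vM21.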

Additional observations from a re-analysis of the deposited data

Results flagged for a closer look

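Apol11b in KO control 4 stood at 0.873 CPM, far from the other 5 KO controls, of which the next highest was at 0.136 CPM. It was the 1 group of 40 (10 genes in 4 groups) with a library this far from the rest. For normal values the rule flags about 1 group in 20 by chance, so 1 in 40 is not above that rate. The other 5 KO controls held only 0 to 4 counts. KO control 4 also had the highest KO control level of Scgb3a1, Grrp1 and Gm694. Without it the KO stress difference of Apol11b was 3.57 in place of 1.88 (log2).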

How the results depend on the processing

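The KO stress test called 0 members under every alternative run, while the genes called overall were 1 as reported, 7 by DESeq2 and 0 with no expression filter, with only the 2 groups compared, within set 1, within set 2, without the thalamus-rich libraries and with library set, the endothelial, red blood cell or neutrophil and monocyte score, or set and endothelial score as terms; leaving out 1 library gave 0 to 2. Of 388 values of KO stress under alternatives, 378 kept their direction, and since no member was called at first, no call could be lost. Many of the 388 are from fits with a WT library left out, which hardly enters this contrast: the members' median then stayed at 0.448 to 0.456. The KO log2 fold change turned below 0 within set 1 for Apol11b (-0.16), Ly6a (-0.087) and Tmem252 (-0.057), with the red blood cell term for Apol11b (-1.35), Gm694 (-0.15), Ier3 (-0.12), Ly6a (-0.093) and Tmem252 (-0.28), and with set and endothelial score for Gm694 (-0.0194) and Ier3 (-0.0114). WT stress called 6 to 10 members with 1 library left out, 9 with library set as a term or by voom, 6 within set 2 and without thalamus-rich libraries, and 0 within set 1 or with any score as a term. It called 59 genes by DESeq2, 1 with the endothelial term and 0 within set 1 and with the red blood cell, neutrophil and monocyte, or set and endothelial terms, against 22.
The endothelial score called 9 genes with RLE factors, 4 without thalamus-rich libraries, 0 within set 1, within set 2 and in KO libraries only, and 3 (without KO stress 5) to 811 (without KO stress 3) with 1 library left out, against 16; 0 to 1 member was called when 1 library was left out. The neutrophil and monocyte score called 21 genes with no set term, 2 with z scores, 1 without thalamus-rich libraries, 0 within set 2 and in KO libraries only, and 1 to 26 with 1 library left out, against 6; members called were 1 with no expression filter and 0 to 1 with 1 library left out. The red blood cell score called 2 genes within set 1 and 2 with no set term, and 0 to 1 with 1 library left out, against 0.
Slopes on the endothelial score turned below 0 within set 1 for Ctla2a (-1.90), Grrp1 (-2.32), Tmem252 (-2.96) and Tmem176a (-0.21), within set 2 for Apol11b (-1.32) and Scgb3a1 (-0.16), and without thalamus-rich libraries for Grrp1 (-1.28); with 1 library left out Grrp1 ran from -1.22 to 0.67 and Tmem176a from -0.063 to 0.34. On the neutrophil and monocyte score they did so within set 1 for Ctla2a (-0.39), Grrp1 (-0.21), Ier3 (-0.067), Ly6a (-0.31), Tmem176a (-0.24) and Tmem252 (-0.44), without thalamus-rich libraries for Grrp1 (-0.069) and Tmem176a (-0.00253), and in KO libraries only for Tmem176a (-0.16); with 1 library left out Grrp1 ran from -0.0167 to 0.157 and Tmem176a from -0.00781 to 0.0548. On the red blood cell score Ctla2a (-0.19) and Scgb3a1 (-0.14) turned within set 1 and Igfbp7 (-0.0297) within set 2, while Grrp1 turned above 0 with no filter (0.065), within set 2 (0.23), without thalamus-rich libraries (0.0057), with no set term (0.10) and in KO libraries only (0.45), and with 1 library left out ran from -0.0892 to 0.0829, as Tmem176a did from -0.12 to 0.0656.
With replicate numbers as a block, KO stress called 1 gene, as reported, and WT stress 24 against 22. The endothelial score called 4 against 16 and the neutrophil and monocyte score 0 against 6. The slope of Grrp1 on the latter was -0.051. The numbers do not pair the samples, since same-numbered libraries correlated at -0.243 to 0.221 in KO and -0.278 to 0.489 in WT. The cause of these shifts was not tested.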
